A study of Mus musculus with 6 samples.

Results

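Mitochondrial ribosomal protein genes were followed here in RNA sequencing of Ang II-treated mouse tissue. The members were the genes whose symbol began with Mrps or Mrpl followed by a digit and whose transcript type in the deposited table was protein coding. They numbered 78 of 33919 genes, 29 named for the small subunit and 49 for the large one. Another 5 genes with such symbols are processed pseudogenes and were left out.

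The 6 libraries came from mice labelled KO (3 libraries) and mice labelled WT (3 libraries), and both groups had received angiotensin II (Ang II), the pressor peptide used to drive vascular remodelling. The allele has no name beyond KO, the labels do not give strain, age or Ang II dose, and the series title names the deubiquitinase OTUD1 and endothelial cells. By the design text each group held 3 mice, but no animal identifiers are given, so each p-value covers only the spread between libraries. Otud1 had 5.08, 5.20 and 5.51 FPKM (fragments scaled to gene length and library total) in the libraries labelled KO, against 2.66, 3.37 and 3.13 FPKM in those labelled WT. It was therefore higher in the libraries labelled KO (log2 change 0.63, SE 0.12, adjusted p = 0.0039 by edgeR's quasi-likelihood test), which goes against that label, and the sources used here do not say which part of the gene was deleted. Directions are given for the libraries labelled KO against those labelled WT.

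Mitochondria carry their own ribosome, which translates the few mRNAs encoded by mitochondrial DNA, all for subunits of the oxidative phosphorylation complexes. Its rRNAs are transcribed inside the organelle, whereas its proteins are encoded in the nucleus, made in the cytosol and imported. The small subunit reads the mRNA and the large subunit joins amino acids and releases the chain at the inner membrane. Many of its proteins descend from the bacterial ribosome, and others, called mitochondria-specific here, have no bacterial counterpart. In muscle and brown fat, tissues rich in mitochondria, its proteins are needed to build the respiratory chain.

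Total counts ran from 65.3 to 71.5 M (M, megacounts) in the libraries labelled KO and from 62.3 to 70.5 M in those labelled WT. Genes of the mitochondrial genome took 50.5% to 53.3% of the counts in the libraries labelled KO and 55.7% to 57.8% in those labelled WT. After nuclear copies of mitochondrial sequence were also set aside, 23 to 23.4 M counts remained in each library labelled KO and 17.3 to 19.4 M in each library labelled WT. The tissue label is aorta, yet the RNA protocol speaks of an adipose type. Among the lists of cell type markers, skeletal muscle had the highest summed FPKM, 8489 to 13430 over 10 genes. The sums were 898.8 to 1157 FPKM for 6 adipocyte genes and 51.6 to 176.2 FPKM for 8 smooth muscle genes. Acta1, skeletal muscle actin, had 4460, 4190 and 4080 FPKM in the libraries labelled KO, against 2380, 2250 and 2450 FPKM in those labelled WT. Acta2, the actin isoform of vascular smooth muscle, had 22.6, 20.7 and 20.6 FPKM in the libraries labelled KO, against 78.4, 76.8 and 86.4 FPKM in those labelled WT. The third library labelled WT stood apart from the other 2 on the second principal component (64.0, against -37.3 and -28.1).

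Transcripts of mitochondrial ribosomal proteins were mostly higher in the libraries labelled KO. Of the 78 members, 47 rose, 0 fell and 31 did not pass the test (edgeR's quasi-likelihood test, Benjamini-Hochberg adjustment over 16620 genes, adjusted p below 0.05). That is 60.3% of the members, beside 11.5% of all genes tested that were called higher and 10.5% that were called lower. Among the 8417 genes within the members' range of mean level (3.87 to 119 CPM, counts scaled for library size), 18.3% were called higher and 13.8% lower. At an unadjusted p under 0.05, 59 members passed, of which 0 were lower, and DESeq2 called 55 members higher and 0 lower. The shares of all genes that passed in these ways were not computed, so these counts do not show an excess in the members. On the deposited FPKM, limma on log2(FPKM + 1) called 62 members higher and 0 lower, beside 24.7% and 8.06% of 11311 genes, and after median-ratio scaling 46 higher, beside 16.6%. The median log2 change of the members was 0.38 (1.30-fold, quartiles 0.26 and 0.48), beside -0.02 over all genes tested (quartiles -0.39 and 0.30) and 0.03 in the same range of level.

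The changes differed in size from gene to gene. Fitted log2 changes ran from -0.08 to 1.01, with 76 members above 0 and 2 below, beside 48.3% of all genes tested that lay above 0. A change of at least 1.5-fold was called in 9 members and one of at least 2-fold in 1. On the CPM scale, all 3 libraries labelled KO lay above all 3 labelled WT in 58 members, beside 19.3% of all genes tested, the groups overlapped in 20, and in 0 members did the libraries labelled KO lie below. On the deposited FPKM scale the groups were separated in that direction in 69 members, beside 26.8% of all genes tested, and the mean was higher in the libraries labelled KO for all 78. FPKM values stand higher in the libraries labelled KO for genes in general (median log2 change of all genes 0.11 on that scale), so the calls below rest on counts with TMM scaling, and values from DESeq2 or from limma on FPKM are named as such. In these bulk samples, fewer cells of a type and less RNA per cell cannot be told apart.

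**Figure D1:**
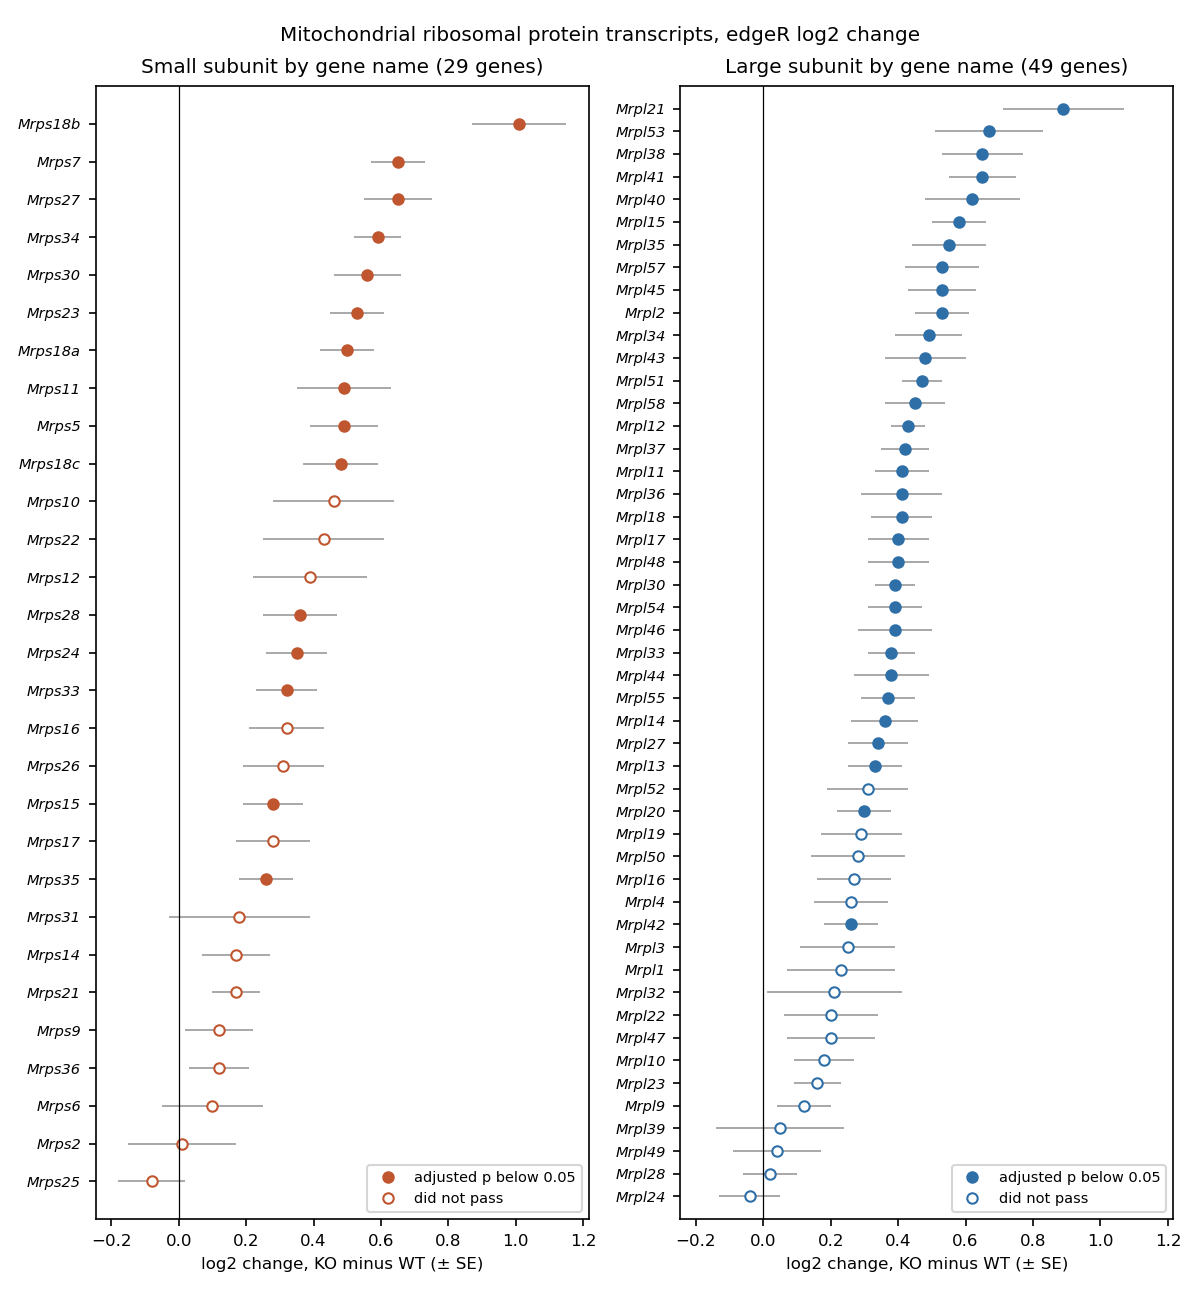
Fitted log2 change of each member, libraries labelled KO minus libraries labelled WT (horizontal axis, points with a bar of 1 SE on each side), ordered by size within the 29 small-subunit (left) and 49 large-subunit (right) gene names. Filled points passed an adjusted p of 0.05. All 47 filled points lie right of 0, and the 2 points left of 0 are open.

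Part of these calls needed all 6 libraries. The number of members called higher was 34 without the first library labelled KO, 33 without the second and 40 without the third. It was 37 without the first library labelled WT, 35 without the second and 42 without the third. With every library left out in turn, 30 members passed each time and 17 lost the call at least once. Those 17 were Mrpl13, Mrpl14, Mrpl17, Mrpl20, Mrpl27, Mrpl36, Mrpl42, Mrpl43, Mrpl44, Mrpl46, Mrpl53, Mrps11, Mrps15, Mrps24, Mrps28, Mrps33 and Mrps35. The median log2 change of the 78 members was 0.34 to 0.39 in these fits, beside 0.38 with all 6 libraries. Each of the 17 had all 3 libraries labelled KO above those labelled WT on the CPM scale. Every called member did, on the same counts as the test, so this separation adds no support to the 17 calls.

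Promoter sequence was compared because the members moved in the same direction. RefSeq start sites on GRCm38.p6 were found for 69 of the 78 members, and windows of 250 bases before to 50 bases after the start were searched on both strands for letters bound by nuclear factors known for mitochondrial genes. The letters CCGGAAG, the core read by ETS factors such as GABPA (nuclear respiratory factor 2), stood in 25 of the 69 windows (36.2%), beside 9.12% of 27025 promoters and 16.9% of the 11066 promoters of tested coding genes. The NRF1 letters, GCGC followed after any pair of bases by another GCGC, stood in 14 (20.3%), beside 6.43% and 12.8%, and the YY1 letters ATGGCGGC in 12 (17.4%), beside 2.38% and 4.68%. At least 1 of the 3 was present in 41 members (59.4%), 10 held more than 1 kind, and matches of different kinds overlapped in 0 members. For these combined counts the shares over other promoters were not computed, so they do not show an excess in the members. TCAAGGTCA, read by oestrogen-related receptors, was found in 0 members and in 0.407% of all promoters. TATAAA stood in 4 members (5.80%), beside 14.2% and 7.70%. A match describes letters in a window and does not show that a factor binds there.

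Between members that rose and members that did not pass, the shares with a match differed by kind. ETS letters stood in 17 of 40 called members (42.5%) and in 8 of 29 others (27.6%), and YY1 letters in 22.5% of called members and 10.3% of the others. NRF1 letters ran the other way, with 17.5% of called members and 24.1% of the others. The median log2 change was 0.43 in members with ETS letters and 0.29 in members without, 0.49 and 0.36 for YY1 letters, and 0.34 and 0.39 for NRF1 letters. These shares are descriptions and were not tested. The 150 bases before the start of 5 members follow, chosen to show a single NRF1 match (Mrpl12, the most abundant member), a pair of ETS matches on opposite strands (Mrpl53), single ETS matches (Mrpl51 and Mrps18a) and a member with no match and a change near 0 (Mrpl24). Capitals mark the matched letters. Mrpl53 and Mrps18a each hold a YY1 match too, which lies in the searched window but outside the bases printed.
Mrpl12: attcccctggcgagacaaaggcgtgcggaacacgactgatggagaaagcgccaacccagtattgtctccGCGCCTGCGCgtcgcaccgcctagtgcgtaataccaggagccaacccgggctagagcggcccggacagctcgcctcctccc
Mrpl53: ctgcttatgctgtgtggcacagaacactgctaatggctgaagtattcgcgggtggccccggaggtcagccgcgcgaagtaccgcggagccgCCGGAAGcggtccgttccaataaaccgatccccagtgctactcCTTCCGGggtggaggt
Mrpl51: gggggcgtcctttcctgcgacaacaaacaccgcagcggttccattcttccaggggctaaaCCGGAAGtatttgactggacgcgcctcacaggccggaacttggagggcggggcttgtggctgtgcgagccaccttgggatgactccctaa
Mrps18a: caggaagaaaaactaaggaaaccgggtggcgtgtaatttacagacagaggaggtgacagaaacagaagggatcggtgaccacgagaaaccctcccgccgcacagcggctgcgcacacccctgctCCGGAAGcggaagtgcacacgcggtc
Mrpl24: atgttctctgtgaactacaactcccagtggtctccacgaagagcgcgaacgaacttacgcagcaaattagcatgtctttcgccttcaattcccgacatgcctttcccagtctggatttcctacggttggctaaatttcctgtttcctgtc

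All 5 stretches are RefSeq sequence of the plus strand, GRCm38.p6. They cover chr11:120484487-120484636 for Mrpl12, chr6:83108958-83109107 for Mrpl53, chr6:125192050-125192199 for Mrpl51, chr17:46110854-46111003 for Mrps18a and chr3:87919394-87919543 for Mrpl24. The match begins 81 bases before the RefSeq start in Mrpl12, 59 and 16 in Mrpl53, 90 in Mrpl51 and 26 in Mrps18a. In all 5 genes the RefSeq start lies downstream of the gene start in the deposited annotation, so each stretch runs into the annotated gene. For Mrpl51, whose annotated gene starts at 125191801, the stretch lies wholly inside it.

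Among the 29 small-subunit genes, 15 rose and 14 did not pass (51.7% higher), with a median log2 change of 0.35. Mrps18b (ENSMUSG00000024436, chr17:35910379-35916389, minus strand, GRCm38) encodes a small-subunit protein of the S18 family, systematic name mS40. It had 12.8, 10.4 and 10.1 FPKM in the libraries labelled KO, against 5.61, 3.76 and 5.58 FPKM in those labelled WT. The groups were far apart, and the change was the largest among the members (log2 change 1.01, SE 0.14, 2.01-fold, adjusted p = 0.00039). Mrps7, homologue of the bacterial protein uS7 in the head of the subunit, had 33.7, 29.9 and 29.4 FPKM in the libraries labelled KO, against 17.4, 19.0 and 16.9 FPKM in those labelled WT. Its means were 31.0 ± 2.36 and 17.7 ± 1.10 FPKM (SD, n = 3 each), and it rose by 0.65 on the log2 scale (SE 0.08, adjusted p = 0.00020 by edgeR). Mrps27, a mitochondria-specific protein with pentatricopeptide repeats, had 8.14, 6.59 and 7.23 FPKM in the libraries labelled KO, against 3.97, 4.21 and 4.43 FPKM in those labelled WT. The groups did not overlap, and the rise was of the same size as that of Mrps7 (log2 change 0.65, SE 0.10).

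Mrps23, one of the 3 most abundant small-subunit transcripts, encodes another mitochondria-specific protein. It had 26.5, 25.4 and 21.7 FPKM in the libraries labelled KO, against 16.1, 13.9 and 15.9 FPKM in those labelled WT, and rose (log2 change 0.53, adjusted p = 0.00094 by edgeR). Mrps21, homologue of bacterial bS21 and the most abundant small-subunit transcript, had 55.3, 51.6 and 53.5 FPKM in the libraries labelled KO, against 41.6, 43.8 and 42.8 FPKM in those labelled WT. The FPKM groups did not overlap, but the count test was not passed (log2 change 0.17, SE 0.07, adjusted p = 0.12), while DESeq2 (adjusted p = 0.032) and limma on FPKM (adjusted p = 0.0056) called it. After median-ratio scaling of FPKM, limma no longer called Mrps21 (log2 change 0.17, adjusted p = 0.052). Mrps22, the least abundant small-subunit transcript, had 1.15, 0.951 and 1.07 FPKM in the libraries labelled KO, against 0.723, 0.591 and 0.820 FPKM in those labelled WT. Its fitted log2 change of 0.43 had an SE of 0.18 and an adjusted p of 0.13 by edgeR. Mrps12, homologue of uS12 at the decoding centre, had 12.1, 14.7 and 10.8 FPKM in the libraries labelled KO, against 8.86, 9.89 and 6.96 FPKM in those labelled WT. The groups overlapped on the CPM scale and the test was not passed (log2 change 0.39, SE 0.17, adjusted p = 0.14, and 0.042 by DESeq2).

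The lowest changes among called small-subunit genes were those of Mrps24 (uS3m), Mrps33 (mS33), Mrps15 (uS15m) and Mrps35 (mS35). Their log2 changes were 0.35, 0.32, 0.28 and 0.26, with adjusted p of 0.015, 0.026, 0.040 and 0.035 by edgeR. Mrps35 had 3.68, 3.76 and 3.55 FPKM in the libraries labelled KO, against 2.70, 2.80 and 2.74 FPKM in those labelled WT. All 4 of these calls were lost when some single libraries were left out, with adjusted p up to 0.13 for Mrps35 (without the second library labelled KO) and 0.14 for Mrps15 (without the first library labelled KO). Mrps25, a mitochondria-specific protein named here after its values were seen, had the lowest fitted change of all members. It had 4.21, 3.82 and 3.52 FPKM in the libraries labelled KO, against 4.09, 3.39 and 3.49 FPKM in those labelled WT. The groups overlapped (log2 change -0.08, SE 0.10, adjusted p = 0.62). In limma on FPKM its log2 change was 0.06, where the median of all genes was 0.11, and -0.06 after median-ratio scaling.

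Of the 49 large-subunit genes, 32 rose and 17 did not pass (65.3% higher), with a median log2 change of 0.38. Mrpl12, the protein of the stalk that calls translation factors to the ribosome, was the most abundant member (chr11:120484613-120489065, plus strand). It had 90.9, 85.3 and 79.6 FPKM in the libraries labelled KO, against 59.7, 54.1 and 56.5 FPKM in those labelled WT, or 85.3 ± 5.64 and 56.8 ± 2.79 FPKM (SD, n = 3 each). The groups were well separated, and the rise had the smallest SE among the members named here (log2 change 0.43, SE 0.05, adjusted p = 0.00021 by edgeR). Mrpl11, which forms the base of that stalk, had 10.4, 9.61 and 8.43 FPKM in the libraries labelled KO, against 6.18, 6.35 and 6.70 FPKM in those labelled WT, and rose (log2 change 0.41, adjusted p = 0.0047 by edgeR). Mrpl14, homologue of uL14 at the interface of the subunits, had 34.1, 32.7 and 34.3 FPKM in the libraries labelled KO, against 23.6, 19.6 and 27.9 FPKM in those labelled WT. Its spread was wider in the libraries labelled WT, and its call (log2 change 0.36, adjusted p = 0.023) was lost when any library except the third labelled WT was left out (adjusted p up to 0.085, without the third library labelled KO). Mrpl54, a mitochondria-specific protein, had 34.3, 30.0 and 30.1 FPKM in the libraries labelled KO, against 20.5, 21.9 and 22.2 FPKM in those labelled WT, and rose (log2 change 0.39, adjusted p = 0.0065 by edgeR).

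The largest change in this subunit was that of Mrpl21, homologue of bacterial bL21. It had 5.01, 3.66 and 3.59 FPKM in the libraries labelled KO, against 2.45, 1.68 and 1.79 FPKM in those labelled WT. The first library was the highest in both groups, and the groups did not overlap (log2 change 0.89, SE 0.18, 1.85-fold, adjusted p = 0.0054 by edgeR). Mrpl53, mitochondria-specific, had 22.5, 19.7 and 17.8 FPKM in the libraries labelled KO, against 12.3, 8.05 and 13.8 FPKM in those labelled WT. Its call (log2 change 0.67, SE 0.16, adjusted p = 0.011) was lost at the threshold without the first library labelled KO (adjusted p = 0.050).

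Mrpl38 and Mrpl40 are mitochondria-specific proteins of the central protuberance, a crest of the large subunit that faces the small one. Mrpl38 had 10.8, 10.4 and 10.9 FPKM in the libraries labelled KO, against 7.14, 4.97 and 6.38 FPKM in those labelled WT (log2 change 0.65, SE 0.12, adjusted p = 0.0022 by edgeR). Mrpl40 had 5.71, 5.37 and 4.97 FPKM in the libraries labelled KO, against 3.72, 2.70 and 2.93 FPKM in those labelled WT (log2 change 0.62, SE 0.14, adjusted p = 0.0099 by edgeR). Mrpl41, also mitochondria-specific, had 22.2, 21.8 and 21.0 FPKM in the libraries labelled KO, against 10.9, 12.2 and 14.3 FPKM in those labelled WT. All 3 genes were separated between the groups, and Mrpl41 rose by 0.65 on the log2 scale (SE 0.10, adjusted p = 0.0010). Mrpl58, a component of the large subunit that also acts as a peptidyl-tRNA hydrolase on stalled ribosomes, had 7.78, 7.12 and 8.07 FPKM in the libraries labelled KO, against 4.96, 4.73 and 5.42 FPKM in those labelled WT. It rose by 0.45 (SE 0.09, adjusted p = 0.0034 by edgeR). Mrpl57 (mL63), with 3.69, 3.21 and 3.24 FPKM in the libraries labelled KO, against 2.19, 1.93 and 2.21 FPKM in those labelled WT, rose by 0.53 (adjusted p = 0.0068 by edgeR).

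**Figure D2:**
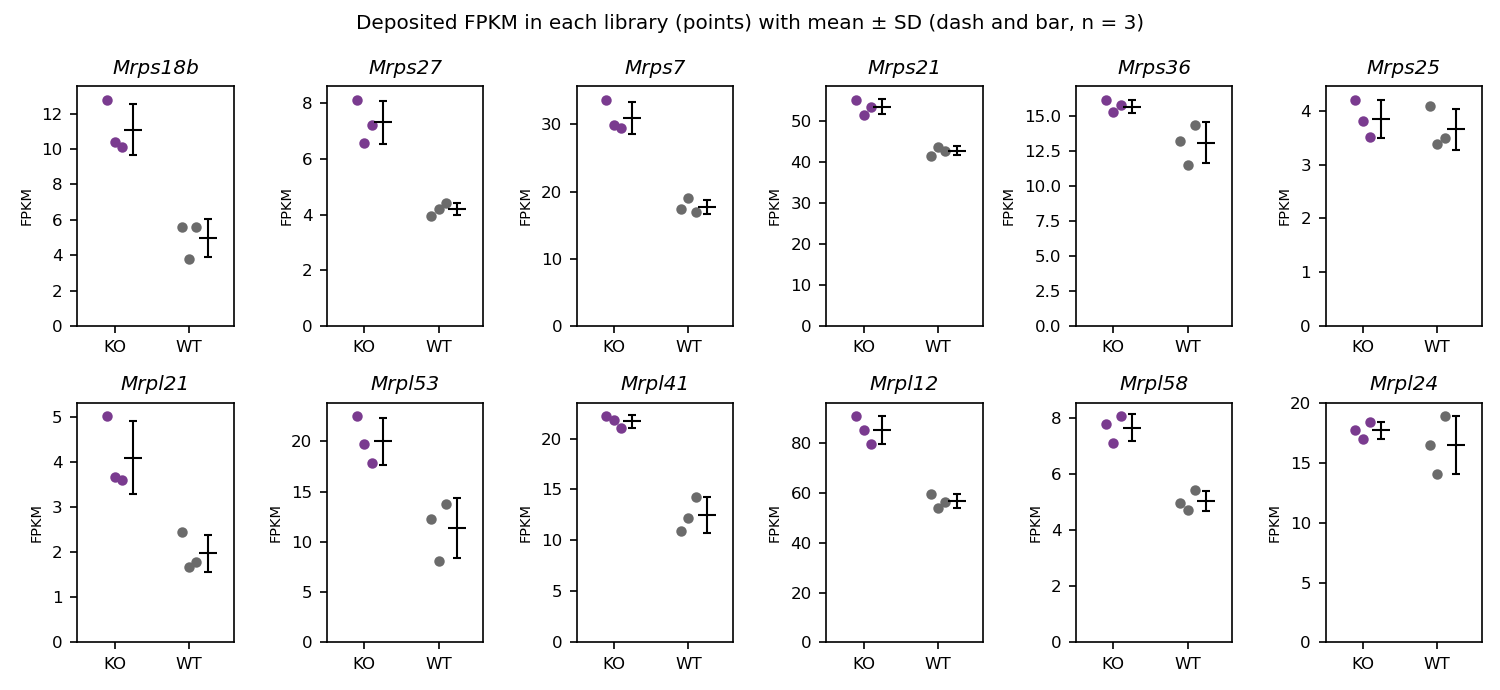
Deposited FPKM (vertical axis, from 0) of 12 members in the libraries labelled KO (left) and labelled WT (right), 1 point per library, with the mean and SD of 3 libraries beside them. Of the genes drawn, the groups overlap for Mrps25 and Mrpl24 and are separated for the other 10.

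At the low end of the called large-subunit genes stood Mrpl27 (bL27m), Mrpl13 (uL13m), Mrpl20 (bL20m) and Mrpl42 (mL42). Their log2 changes were 0.34, 0.33, 0.30 and 0.26, with adjusted p of 0.020, 0.015, 0.017 and 0.031 by edgeR. These 4 calls, too, were lost without some single libraries, with adjusted p up to 0.13 for Mrpl42 (without the first library labelled KO). Mrpl32, which in mouse is cleaved by the m-AAA protease before it joins the ribosome, was the least abundant large-subunit transcript. It had 1.52, 1.47 and 1.63 FPKM in the libraries labelled KO, against 1.40, 1.33 and 0.832 FPKM in those labelled WT. The third library labelled WT was low, and without it the log2 change was -0.01, against 0.21 (SE 0.20, adjusted p = 0.52) with all 6. Mrpl24, homologue of uL24 and named after its values were seen, had 17.7, 17.0 and 18.4 FPKM in the libraries labelled KO, against 16.5, 14.1 and 18.9 FPKM in those labelled WT. The groups overlapped (log2 change -0.04, SE 0.09, adjusted p = 0.77), and the log2 change was 0.02 without the third library labelled WT. In limma on FPKM it was 0.10, where the median of all genes was 0.11, and -0.04 after median-ratio scaling.

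The 3 S18 paralogs show how names and structures part. Mrps18c encodes the homologue of bacterial bS18 and Mrps18b the small-subunit protein mS40, whereas Mrps18a encodes mL66, which sits in the large subunit. All 3 rose. Mrps18a had 10.3, 10.3 and 8.45 FPKM in the libraries labelled KO, against 6.16, 5.66 and 6.62 FPKM in those labelled WT (log2 change 0.50, SE 0.08, adjusted p = 0.0015 by edgeR). Mrps18c had 12.5, 13.3 and 14.1 FPKM in the libraries labelled KO, against 8.68, 7.79 and 9.39 FPKM in those labelled WT (log2 change 0.48, SE 0.11, adjusted p = 0.0090 by edgeR). The groups were separated in each. Mrps30, also a large-subunit protein by structure (mL65), had 2.37, 2.38 and 2.29 FPKM in the libraries labelled KO, against 1.33, 1.40 and 1.56 FPKM in those labelled WT, and rose by 0.56 (adjusted p = 0.0017 by edgeR). Mrps36 is not found in mitoribosome structures and its product is now described as a component of the 2-oxoglutarate dehydrogenase complex. It had 16.2, 15.3 and 15.8 FPKM in the libraries labelled KO, against 13.2, 11.5 and 14.4 FPKM in those labelled WT, and did not pass the count test (log2 change 0.12, SE 0.09, adjusted p = 0.38).

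With members placed by structure, 13 of 26 small-subunit genes rose (median log2 change 0.33) and 34 of 51 large-subunit genes rose (66.7%, median 0.39). Split by origin, 24 of 46 members with a bacterial homologue rose (52.2%, median 0.33) and 23 of 31 mitochondria-specific members rose (74.2%, median 0.43). The mitochondria-specific members of the large subunit had 17 of 21 called, with a median of 0.45, and those of the small subunit 6 of 10, with a median of 0.37. These splits are descriptions, the differences between them were not tested, and members are not replicates of a condition.

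The balance of the subunits was set side by side per library. Summed FPKM of the 29 small-subunit names was 348.1, 330.5 and 318.9 in the libraries labelled KO, against 233.1, 224.4 and 237.1 in those labelled WT. For the 49 large-subunit names it was 696.6, 663.5 and 640.2 in the libraries labelled KO, against 464.0, 428.3 and 498.1 in those labelled WT. Both sums were separated between the groups. Their ratio, small over large, was 0.50, 0.498 and 0.498 in the libraries labelled KO, against 0.502, 0.524 and 0.476 in those labelled WT, so the ratios of the libraries labelled KO lay within the range of those labelled WT. The small-minus-large difference of mean log2 CPM was -0.19, -0.19 and -0.20 in the libraries labelled KO, against -0.17, -0.17 and -0.23 in those labelled WT, and again overlapped. Summed over all 78 members, TMM-scaled CPM was 2126, 2126 and 2074 in the libraries labelled KO, against 1649, 1606 and 1653 in those labelled WT.

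The rRNAs of the same ribosome moved the other way. mt-Rnr1, the rRNA of the small subunit, had 3460, 3670 and 3730 FPKM in the libraries labelled KO, against 5680, 5680 and 5550 FPKM in those labelled WT, and fell (log2 change -0.79, SE 0.05, adjusted p = 2.1e-06 by edgeR). mt-Rnr2, the rRNA of the large subunit, had 3820, 3930 and 3930 FPKM in the libraries labelled KO, against 5290, 5060 and 5260 FPKM in those labelled WT, and fell (log2 change -0.57, SE 0.04, adjusted p = 1.4e-06 by edgeR). The libraries were poly(A)-selected, which captures rRNA incompletely, and all genes of the mitochondrial genome together took a smaller share of counts in the libraries labelled KO. Per megacount outside mitochondrial genes and their copies, the members took 6592, 6652 and 6541 counts in the libraries labelled KO, against 5705, 5567 and 5741 in those labelled WT. With mitochondrial genes removed before scaling, the number of members called higher was again 47.

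**Figure D3:**
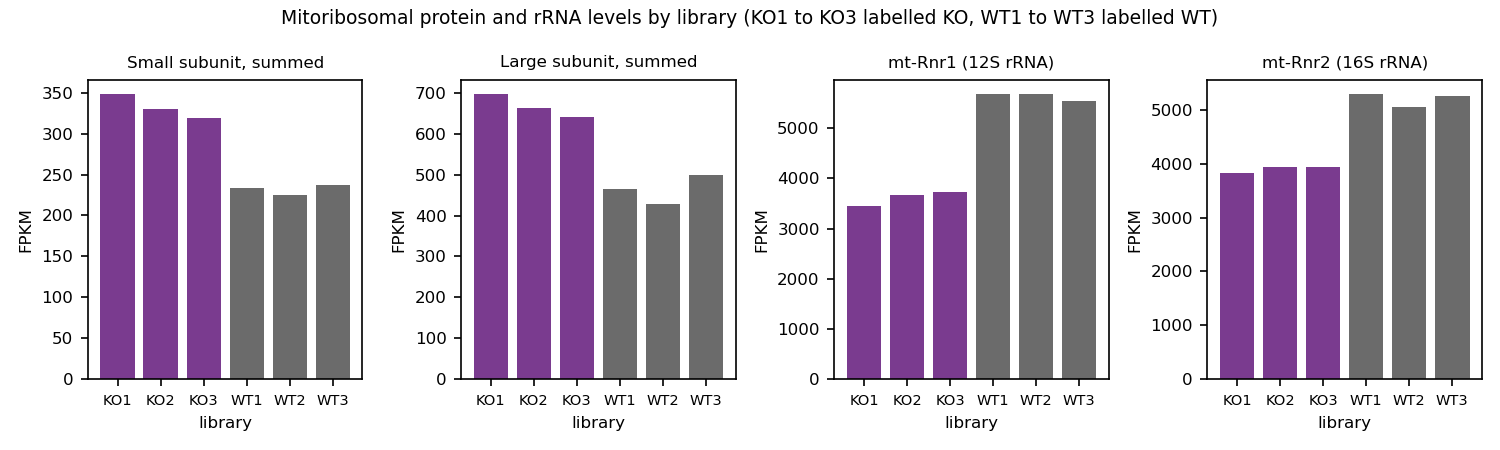
Deposited FPKM (vertical axes, bars from 0) in each library, with the libraries labelled KO left of those labelled WT: the sum over small-subunit names, the sum over large-subunit names, mt-Rnr1 and mt-Rnr2. Both sums are higher in every library labelled KO than in any labelled WT, and both rRNAs are lower.

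Levels differed far more between members than between groups. Mean FPKM over the 6 libraries ran from 0.884 to 71.0, an 80.3-fold range, with a median of 7.56. The order of the members was nearly the same in both groups (Spearman's rho 0.985 between the group means over 78 members, a description across genes that share libraries). Change and level were weakly related (Spearman's rho 0.13 over the 78 members). Of the 39 members of higher level, 30 were called (median log2 change 0.39, median SE 0.09), and of the 39 of lower level, 17 were (median 0.29, median SE 0.11).

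Of 5 mitoribosomal proteins whose genes carry other names, 3 rose and 0 fell, with a median log2 change of 0.40. Chchd1, a small-subunit protein, had 44.8, 39.0 and 37.2 FPKM in the libraries labelled KO, against 25.5, 22.9 and 26.7 FPKM in those labelled WT (log2 change 0.54, adjusted p = 0.00056 by edgeR). Aurkaip1, of the small subunit, and Gadd45gip1, of the large one, rose by 0.47 and 0.40 (adjusted p = 0.0013 for each by edgeR). Dap3, a GTP-binding protein of the small subunit, had 4.12, 4.51 and 5.13 FPKM in the libraries labelled KO, against 3.21, 3.47 and 4.17 FPKM in those labelled WT, and the groups overlapped (log2 change 0.20, adjusted p = 0.26). Ptcd3, a pentatricopeptide protein of the small subunit, had a log2 change of 0.23 (adjusted p = 0.12).

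The other genes of mitochondrial gene expression were measured at lower levels, with list medians of 1.6 to 1.97 FPKM, beside 7.56 FPKM for the members. Of 13 translation factors 3 rose (23.1%) and 0 fell, with a median log2 change of 0.25. This and the shares in the next lists stand beside the 11.5% of all genes tested that were called higher, and beside 18.3% in the members' range of level. Tufm, the elongation factor that brings aminoacyl-tRNA to the ribosome, had 54.8, 52.3 and 48.7 FPKM in the libraries labelled KO, against 36.4, 33.6 and 35.7 FPKM in those labelled WT (log2 change 0.41, adjusted p = 0.00023 by edgeR). Gfm1, the translocase of elongation, and Gfm2, which acts in ribosome recycling, rose by 0.45 and 0.49. Of 20 aminoacyl-tRNA synthetases and amidotransferase subunits, which charge mitochondrial tRNAs, 4 rose (20.0%) and 1 fell, with a median of 0.31. Cars2, Tars2 and Iars2 rose by 0.72, 0.50 and 0.46, and Fars2 (0.44, adjusted p = 0.032) lost its call when either group was without its first or its second library (adjusted p = 0.073 to 0.12). The synthetase that fell was Lars2, for leucine, with 224, 227 and 233 CPM in the libraries labelled KO, against 251, 257 and 275 CPM in those labelled WT (log2 change -0.19, adjusted p = 0.0094 by edgeR). On the deposited FPKM scale, where the median of all genes was 0.11, its groups overlapped and the call was lost (log2 change -0.04, adjusted p = 0.72 by limma), and after median-ratio scaling the call was kept (log2 change -0.19, adjusted p = 0.031).

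Of 27 genes of mitoribosome assembly and rRNA modification, 5 rose (18.5%) and 0 fell, with a median of 0.32. Mtg2, a GTPase of large-subunit assembly, had 1.87, 1.84 and 1.69 FPKM in the libraries labelled KO, against 0.913, 0.968 and 1.08 FPKM in those labelled WT (log2 change 0.71, adjusted p = 0.0011 by edgeR). Of the other 4, Mterf4 (1.0), Mrm3, an rRNA methyltransferase (0.68), Rcc1l (0.42) and Grsf1, an RNA-binding protein of mitochondrial RNA granules (0.31), each lost the call without at least 1 library, with adjusted p up to 0.077, 0.071, 0.052 and 0.089. Of 16 genes of mitochondrial transcription and RNA handling, 6 rose (37.5%) and 0 fell, with a median of 0.26. Hsd17b10, a subunit of the RNase P that cuts mitochondrial transcripts, had 40.4, 42.1 and 36.0 FPKM in the libraries labelled KO, against 21.4, 22.4 and 24.0 FPKM in those labelled WT (log2 change 0.65, adjusted p = 9.8e-05 by edgeR). Tefm, the transcription elongation factor, and Lrpprc, which stabilises mitochondrial mRNAs, rose by 0.81 and 0.50. Polrmt, the mitochondrial RNA polymerase (0.51), Slirp, the partner of Lrpprc (0.44), and Supv3l1, an RNA helicase (0.49), passed with all libraries and lost the call without some single ones, with adjusted p up to 0.10, 0.091 and 0.065.

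Cytosolic ribosomal protein genes moved less. Of 77 tested, 17 rose (22.1%) and 6 fell, with a median log2 change of 0.05. Among 93 nuclear genes of oxidative phosphorylation, 50 rose (53.8%) and 10 fell, with a median of 0.21. The difference between these lists and the members was not tested.

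**Figure D4:**
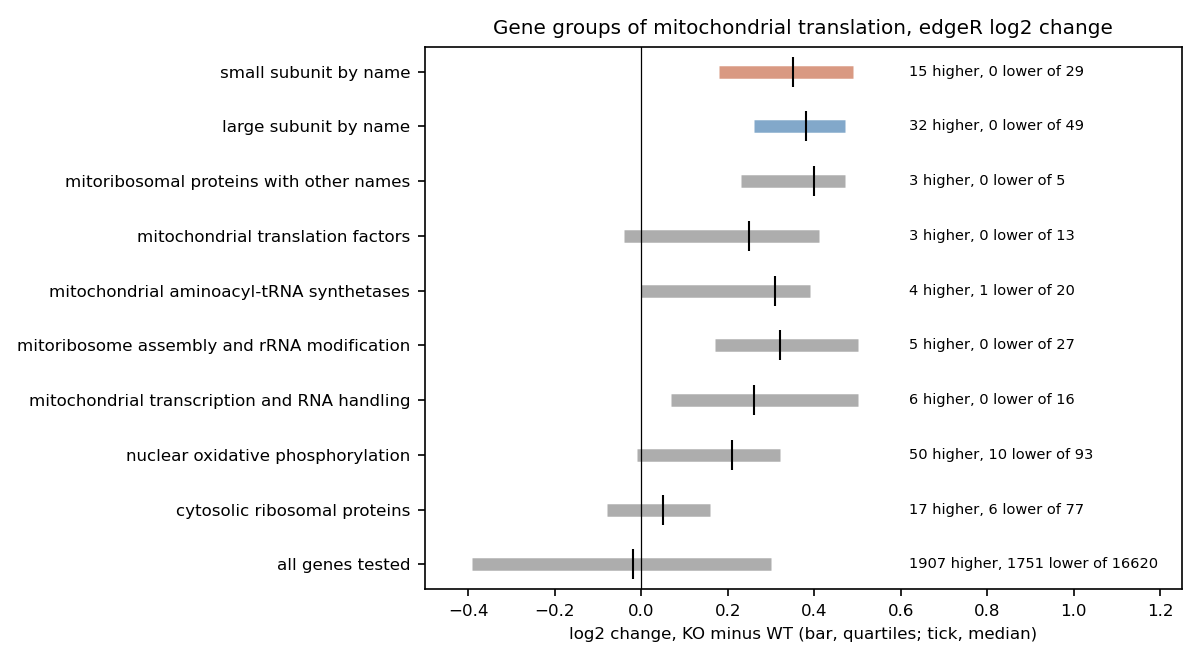
Fitted log2 change (horizontal axis, libraries labelled KO minus libraries labelled WT) by gene group, with bars from the lower to the upper quartile and a tick at the median. The numbers at the right are genes called higher, genes called lower and genes tested, and the medians of both subunits, 0.35 and 0.38, stand right of those of cytosolic ribosomal proteins, 0.05, and of all genes tested, -0.02.

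The members lie on 17 chromosomes, 11 of them on chromosome 11, and many share their start region with a neighbour. A partner was a tested protein-coding gene on the opposite strand, head to head, with starts at most 1000 bases apart or overlapping by at most 200 bases. By this rule 23 members (29.5%) had a partner, beside 10.1% of 14056 tested coding genes. Mrps11 and Mrpl46, which lie head to head with a longer overlap, counted as members without a partner. Of the members with such a partner 17 of 23 rose, and of the others 30 of 55. The 23 partners themselves had a median log2 change of 0.26. Of them 5 were higher and 1 lower, beside 11.5% and 10.5% of all genes tested. In the members' range of level the shares were 18.3% and 13.8%. Whether the partners differ from other genes was not tested. Beside Mrps18b lies Ppp1r10, 45 bases from start to start, with a log2 change of -0.33 (adjusted p = 0.14). The partner of Mrpl41, Pnpla7, rose (0.81, adjusted p = 0.00035), as did Apba3 beside Mrpl54 (0.66, adjusted p = 0.00099) and Tmem63b beside Mrpl14 (0.55, adjusted p = 0.0022). Ndufb5, a complex I subunit, rose by 0.56 (adjusted p = 3.4e-05 by edgeR), while its partner Mrpl47 had 0.20 and did not pass (adjusted p = 0.31). Ndufs6, another complex I subunit, fell by 0.27 (adjusted p = 0.0021 by edgeR) beside Mrpl36, which rose (0.41, adjusted p = 0.035, and lost without some single libraries).

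Gene bodies overlap as well. In 36 members the annotated gene overlaps another gene, wholly or in part, in 31 of them one on the opposite strand, Mrps18b and Mrpl21 included. The share of such overlaps over all genes was not computed. The sources used here do not give the strand setting of the counting, so reads of such a member and of its overlapping neighbour may not be told apart. Of these 36 members 25 rose, and of the 42 without any overlap 22 did.

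Markers of several cell types moved in the same libraries. Skeletal muscle markers (7 of 10 higher, 1 lower) had summed levels of 25870 to 26720 CPM in the libraries labelled KO and 19490 to 19990 CPM in those labelled WT. The 5 slow-fibre markers were all lower, at 1013 to 1055 CPM in the libraries labelled KO and 1608 to 1671 CPM in those labelled WT. Of 6 brown adipocyte markers 3 were higher and 2 lower, at 887.6 to 948.0 CPM in the libraries labelled KO and 798.3 to 814.0 CPM in those labelled WT. This sum leans on Ucp1, with 370 to 412 CPM in the libraries labelled KO and 227 to 235 CPM in those labelled WT. Cox8b went the other way, with 177 to 182 CPM and 222 to 239 CPM. Smooth muscle markers (7 of 8 lower, 0 higher) summed to 177.1 to 180.6 CPM in the libraries labelled KO and 543.2 to 550.6 CPM in those labelled WT. Fibroblast markers (7 of 7 lower) summed to 179.2 to 200.4 CPM in the libraries labelled KO and 555.1 to 586.8 CPM in those labelled WT. The 4 neutrophil markers were all higher, at 25.2 to 29.1 CPM in the libraries labelled KO and 1.92 to 3.49 CPM in those labelled WT. Of 6 endothelial markers 2 were higher and 2 lower, of 6 adipocyte markers 2 and 2, of 6 macrophage markers 0 and 4, and the 5 erythroid and 5 hepatocyte markers were all lower. Of 5 cardiac muscle markers 3 were tested, and 0 were higher and 0 lower. Myocd (smooth muscle) had a count of 0 in all libraries labelled KO, and its counts were low, 16, 25 and 41, in those labelled WT. Retnlg (neutrophils) had counts of 203, 154 and 85 in the libraries labelled KO and of 0 in all libraries labelled WT. The part of these shifts in the members' higher levels was not tested.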

How the data were processed

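Poly(A) RNA of 6 libraries labelled mouse aorta was sequenced with paired-end reads, per the labels' protocols. The authors deposited a single table with whole-number counts per gene and FPKM values, the units being per the file headers. Per the submitters' processing notes, HISAT2 2.0, Bowtie 0.12.2 and mouse build mm8 were used, in roles that are not stated. The sources used here do not give the counting program, its strand setting or the FPKM formula. Gene coordinates were identical to GENCODE M21 (GRCm38) for 88.5% of members and 86.0% of the genes in both, and positions are therefore on GRCm38. Low counts fell on multiples of 4 in 33.0% to 34.9% of cases, against 25% if spread evenly, so counts divided by 4 were tried as an alternative.

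Counts were filtered with filterByExpr, scaled by TMM and tested for genotype with edgeR 4.0.16 in R 4.3.3 (quasi-likelihood F-test, two-sided, Benjamini-Hochberg over 16620 genes, threshold 0.05). All 78 members passed the filter. Their counts ran from 173 to 10131 per library. SE is the log2 change divided by the square root of F. Alternatives were DESeq2 1.42.0, its size factors, no filter, mitochondrial genes removed, counts divided by 4, a replicate block, each library left out, and limma 3.58.1 on log2(FPKM + 1) or log2(FPKM + 0.1). Figures were drawn with matplotlib 3.10.9.

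The members, the lists and the rule for named genes were chosen with earlier results of these data known. Named were the 8 largest and 8 smallest called changes, the 3 most and the least abundant genes of each subunit, paralogs, members whose name and structure differ, members with a known role in the stalk, the decoding centre or ribosome rescue (and Mrpl57), and up to 3 genes per list, together with the other called genes of each list, which were added after their values were seen. Neighbouring genes were also chosen after their values were seen. Subunit in structures and origin follow the standard nomenclature.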

Additional observations from a re-analysis of the deposited data

How the results depend on the processing

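The number of members called higher was 55 with DESeq2, 47 with its size factors, 42 without the low-count filter, 48 with counts divided by 4, and 62, 61, 41 and 46 with limma on FPKM (pseudocount 1, pseudocount 0.1, no filter, median-ratio scaled), and 0 were lower in each of these. It was 33 to 42 with a library left out. The members called in every one of these fits numbered 29. With the replicate block the number of members called higher was 42 (41 shared with the fit without it). Same-numbered libraries did not deviate together (correlations 0.024, -0.009 and 0.018), so no pairing by number was seen. A pairing with small effects on expression could go unseen in this check. The small-subunit median was 0.42, 0.50, 0.42 and 0.28 in the 4 limma settings, and the large-subunit median 0.53 at pseudocount 0.1. The small-minus-large difference of unrounded medians, -0.04, lay between -0.02 and 0.01 with a library left out. Of all called genes 52.1% were higher in edgeR, 75.4% in limma on FPKM and 55.7% after scaling, with the median of all genes at -0.02, 0.11 and 0.01. The genes tested ran from 11273 to 28428 by setting. Shares of all genes called higher were computed only for edgeR with all libraries and for filtered limma at pseudocount 1, unscaled and scaled. The member counts of the other settings therefore have no share beside them. Signs turned for Mrps25 (0.06, 0.07 and 0.06) and Mrpl24 (0.10, 0.11 and 0.10) in the unscaled limma settings, and were negative again after median-ratio scaling (-0.06 and -0.04). With a library left out Mrps25 ran from -0.15 to 0.01, Mrpl24 from -0.12 to 0.02 and Mrpl32 from -0.01 to 0.35, and the cause was not tested. Counts limit the least abundant members most, and no outlier test was made in groups of 3.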
